A study of Mus musculus with 15 samples.

Results

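The genes described here encode the 5 subunits from which the cytokines of the interleukin-12 (IL-12) family are built: Il12a (p35), Il12b (p40), Il23a (p19), Ebi3 and Il27 (p28). They were taken by symbol alone, as the array probe sets that carry exactly 1 of these symbols, and are 5 of the 19937 genes tested. Each was read by a single probe set, so no choice between probe sets was needed. The cells were D1 cells, a long-term dendritic cell (DC) line from the spleen of C57BL/6 mice, which depends on growth factors and was profiled in bulk. In 5 groups of 3 Affymetrix Mouse Gene 1.0 ST arrays, labelled as biological replicates, the cells were left nontreated, were given 10 µg/ml curdlan for 2 h or 4 h, or were given curdlan together with FK506 for 2 h or 4 h. Curdlan is a glucan polymer recognised by dectin-1 (Clec7a), a C-type lectin receptor, and FK506 is a drug that blocks the phosphatase calcineurin. All groups are of the same line, so the values describe 1 line and not primary DCs, and the spread between arrays is that between samples of this line. No array was of cells given FK506 without curdlan, so each FK506 difference is read in the presence of curdlan.

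IL-12 family cytokines are secreted pairs of 1 helical subunit and 1 receptor-like subunit. IL-12 joins p35 to p40, IL-23 joins p19 to the same p40, and IL-27 joins p28 to EBI3, which can also pair with p35 to form IL-35. DCs are a main source of IL-12, IL-23 and IL-27. IL-12 drives T cells towards interferon-gamma production, IL-23 sustains IL-17-producing T cells, and IL-27 can promote or restrain T cell responses. Fungal beta-glucans signal through dectin-1, SYK and CARD9 to NF-kB and through calcium and calcineurin to NFAT. Arrays measure the mRNA of each subunit, and the paired protein was not measured.

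The gene starts of Il12b and Ebi3 are shown because these members lie at opposite ends of the FK506 comparison at 2 h. Each window is the 250 bases before the RefSeq gene start on the plus strand of GRCm38.p6, at chr11:44399813-44400062 for Il12b and at chr17:55952373-55952622 for Ebi3. Capitals mark every match to 6 motifs searched on both strands. The NFAT core was searched as GGAAAA and the AP-1 motif as TGANTCA. The kB-like motif was GGG and CC with any 5 bases between them, and the C/EBP-like motif was TTNNGNAA. The interferon response motif was a pair of GAAA copies with any 2 bases between them, and the TATA motif was TATAAA.
Il12b: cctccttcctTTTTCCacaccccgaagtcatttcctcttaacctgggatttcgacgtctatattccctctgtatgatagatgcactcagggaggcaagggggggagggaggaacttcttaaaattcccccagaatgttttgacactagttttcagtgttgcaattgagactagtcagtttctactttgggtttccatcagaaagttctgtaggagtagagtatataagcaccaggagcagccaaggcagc
Ebi3: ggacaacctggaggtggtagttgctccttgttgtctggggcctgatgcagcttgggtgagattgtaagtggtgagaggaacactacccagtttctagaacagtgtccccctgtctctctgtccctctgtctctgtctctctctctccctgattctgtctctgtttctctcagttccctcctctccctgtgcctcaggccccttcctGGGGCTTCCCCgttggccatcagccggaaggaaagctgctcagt
The Il12b window held 1 match, GGAAAA on the minus strand, from 240 to 235 bases before the start, which overlapped no other motif. GGAAAA was present in 20.4% of the 32851 promoter windows of the same length. The Ebi3 window held 4 overlapping kB-like matches, counting both strands, between 44 and 34 bases before the start, and 45.8% of all windows held that motif. The other motifs were found in 6.75% (AP-1), 36.8% (C/EBP-like), 2.98% (interferon response) and 12.4% (TATA) of all windows. Il12a has 2 annotated starts, of which the upstream window held none of these motifs and the other held 2 overlapping kB-like matches. No window was available for Il23a or Il27, so neither gene was searched. A match describes letters and not binding. A window without a match lacks only the exact patterns listed, and other forms of the same sites were not searched.

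Before the results, the arrays were checked. The lowest array weights were those of nontreated replicate 1 (0.0781) and of replicate 3 in the curdlan 2 h group (0.119), which are called the 2 outlying arrays below. Without both, 1 member result crossed the threshold, given with the interaction test. Of 10 conventional DC markers, 9 were above the median gene in every group, the exception being Flt3, a growth factor receptor of DCs (5.93 ± 0.03 in nontreated cells, SD, n = 3, log2 scale). Markers of T cells (6 measured), B cells (4), NK cells (5), neutrophils (5) and mast cells (4) were all below the median gene in every group. Of 5 fibroblast markers, 3 (Col1a1, Col1a2 and Col3a1) were above it, and 0 of the 5 passed the test in any comparison. Of 7 macrophage markers, 5 were above the median gene in nontreated cells, 6 with curdlan, and 5 and 4 with FK506 at 2 h and 4 h. Of 4 plasmacytoid DC markers, 1 was above it in every group. This check therefore does not separate DCs from macrophages. The same 3 nontreated arrays serve the comparisons at 2 h and at 4 h, which are therefore not independent of each other. The nontreated arrays carry no time label, so neither comparison is known to have a control matched in time. In bulk RNA, fewer expressing cells and less mRNA per cell cannot be told apart.

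Il12b and Il23a, the p40 and p19 subunits of IL-23, were the members that moved most. Levels are log2 signals after RMA, an array summary that puts all arrays on 1 scale, and 1 unit is a doubling of signal. The Il12b level read 6.44, 6.00 and 5.97 in the nontreated arrays, 9.38, 9.38 and 9.29 after 2 h of curdlan, and 11.55, 11.58 and 11.51 after 4 h. With FK506 it read 7.22, 7.34 and 7.39 at 2 h and 9.88, 9.84 and 9.85 at 4 h. No 2 groups overlapped, and the order of the groups from lowest to highest was nontreated, FK506 2 h, curdlan 2 h, FK506 4 h and curdlan 4 h.

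The Il23a level read 6.34, 5.57 and 6.23 in nontreated arrays, 10.77, 10.82 and 10.72 at 2 h of curdlan, and 11.75, 11.74 and 11.78 at 4 h. With FK506 it read 9.65, 9.63 and 9.84 at 2 h and 10.08, 9.98 and 10.04 at 4 h. All 5 groups were separate here too. The middle of the order differed from that of Il12b, since the FK506 4 h arrays of Il23a lay below the curdlan 2 h arrays, whereas those of Il12b lay above them.

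**Figure D1:**
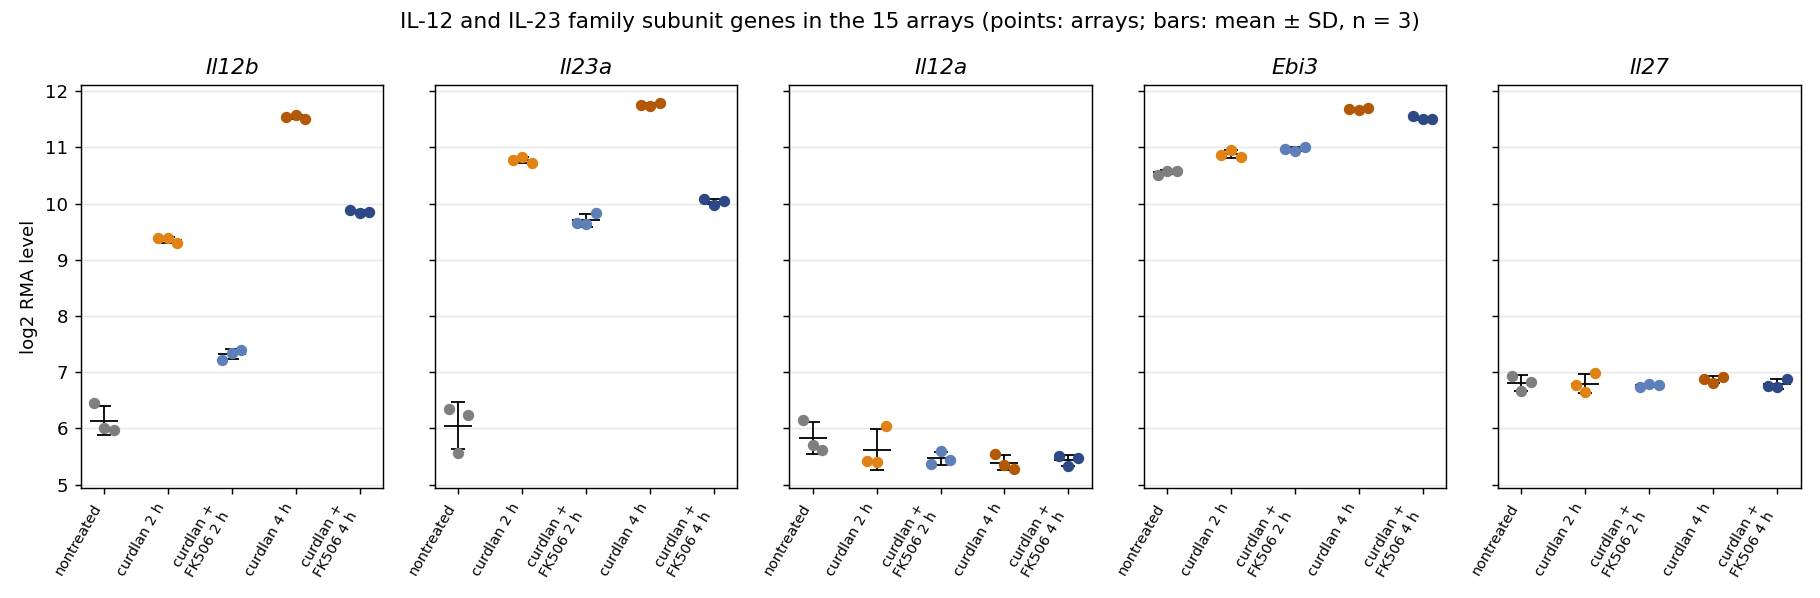
Log2 RMA level (vertical axis) of each subunit gene in the 5 groups (horizontal axis), with a point per array and bars for the mean ± SD (n = 3). Il12b climbs from a mean of 6.14 to 11.5 at 4 h of curdlan and Il23a from 6.05 to 11.8, Ebi3 starts at 10.6 and reaches 11.7, and Il12a and Il27 stay within 1 unit.

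A gene was called where its limma adjusted p lay under 0.05 and its fold change reached 1.5 (log2 0.585). At 2 h of curdlan, 2 of the 5 members were called higher and 0 lower, against 2.2% of all tested genes called higher and 1.4% called lower. Il23a rose by 4.72 ± 0.14 log2 units (SE, limma adjusted p = 2.77e-11), a 26.4-fold rise in signal. Il12b rose by 3.21 ± 0.10 (SE, limma adjusted p = 2.37e-11), a 9.26-fold rise in signal. At 4 h, 3 members were called higher and 0 lower, where 5.05% of genes were called higher and 4.15% lower. The Il23a signal was then 52.3-fold and the Il12b signal 42.4-fold that of nontreated cells, and Ebi3 joined them. In nontreated cells both signals (6.05 ± 0.42 for Il23a and 6.14 ± 0.26 for Il12b, SD, n = 3) lay below the median gene (6.76) and carry no detection call, so these folds hold for signal and may understate the change in mRNA. The Il12b rise ranked 20 among all genes at 2 h and 6 at 4 h, and the Il23a rise ranked 7 and 5.

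Between 2 h and 4 h of curdlan both IL-23 subunits rose further. Il12b rose by a further 2.19 ± 0.10 (SE, limma adjusted p = 3.04e-09) and Il23a by 0.99 ± 0.14 (SE, limma adjusted p = 0.000162), and 3 members in all were called in this step, where 2.79% of genes were called higher. The within-array difference of Il12b minus Il23a compares the change in signal of the 2 genes. It went from 0.09 ± 0.35 in nontreated cells to -1.42 ± 0.03 at 2 h of curdlan (SD, n = 3), a shift of -1.51 log2 units, and the 2 sets of arrays did not overlap. If nontreated signals are background, this shift cannot be told apart from unequal signal of the 2 probe sets at 2 h. At 4 h the difference was -0.21 ± 0.05, which overlapped the nontreated arrays. Exact two-sided permutation tests gave p = 0.1 at 2 h and p = 0.3 at 4 h (0.2 and 0.4 after adjustment over 4 such comparisons), where 0.1 is the smallest p that 3 arrays against 3 can give.

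With FK506 present, Il12b and Il23a were still above nontreated cells at each time. At 2 h Il23a was higher than in nontreated cells by 3.66 ± 0.14 (SE, limma adjusted p = 6.32e-10) and Il12b by 1.18 ± 0.10 (SE, limma adjusted p = 1.4e-06), making 2 members called where 1.81% of genes were called higher. At 4 h Il23a was higher by 3.99 ± 0.14 and Il12b by 3.72 ± 0.10 (SE, limma adjusted p = 1.72e-10 and 5.71e-12). With Ebi3, 3 members were called at 4 h against 2.95% of genes called higher.

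**Figure D2:**
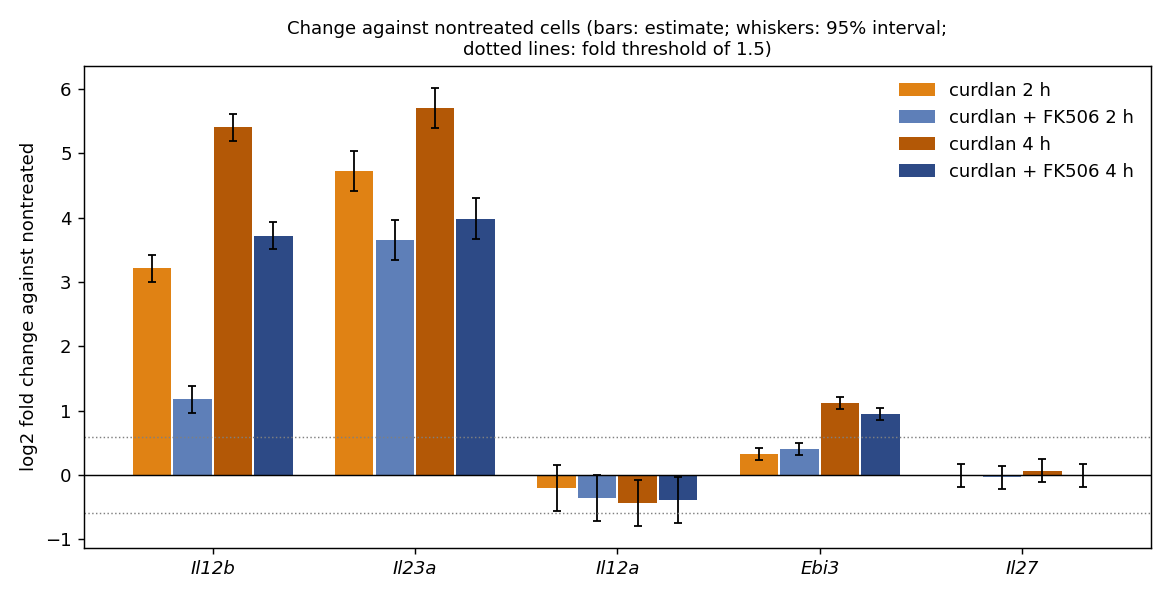
Log2 fold change against nontreated cells (vertical axis) of each member in the 4 treated groups, with whiskers for the 95% interval and dotted lines at the fold threshold of 1.5. The Il23a bars with FK506 stand at 3.66 and 3.99, close in height, while those of Il12b stand at 1.18 and 3.72.

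Under FK506, the step from 2 h to 4 h was called for Il12b and not for Il23a, and the difference between the genes in this step was not tested. Il12b rose by 2.54 ± 0.10 (SE, limma adjusted p = 5.25e-09), which ranked 2 among the 19937 genes and was the only member call in this step, where 0.903% of genes were called higher. The Il23a difference over the same step was 0.33 ± 0.14 (SE, limma adjusted p = 0.195), with a 95% interval from 0.02 to 0.65, and it was not called. The Il23a level at 4 h with FK506 was lower than that at 2 h with curdlan alone by 0.74 ± 0.14 (SE, limma adjusted p = 0.00233). The Il12b value for that pair went the other way, -0.50 ± 0.10 (SE, limma adjusted p = 0.00194), and did not reach the fold threshold. For this pair of groups 1.51% of all genes were called higher and 1.56% lower, and Ebi3 was called lower (-0.63 ± 0.04, SE, limma adjusted p = 1.7e-07).

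In each FK506 difference the arrays with FK506 are subtracted from those with curdlan alone, which makes a positive value a lower level with FK506. Both IL-23 subunits were lower with FK506 at each time, and they were the only 2 members called at either time, against 0.762% of all genes called lower with FK506 at 2 h and 1.53% at 4 h. Il12b was lower by 2.03 ± 0.10 at 2 h (SE, limma adjusted p = 1.41e-08; rank 14 of all genes) and by 1.69 ± 0.10 at 4 h (SE, limma adjusted p = 6.59e-08; rank 41). Il23a was lower by 1.07 ± 0.14 at 2 h (SE, limma adjusted p = 0.000281; rank 54) and by 1.72 ± 0.14 at 4 h (SE, limma adjusted p = 2.47e-06; rank 39). In the same arrays the within-array difference of Il12b minus Il23a was -2.39 ± 0.08 with FK506 at 2 h and -0.18 ± 0.03 at 4 h (SD, n = 3). The FK506 difference of Il12b was thus larger than that of Il23a by 0.97 at 2 h, with separate arrays (exact permutation p = 0.1, adjusted 0.2). At 4 h the same quantity was -0.03 (exact permutation p = 0.4, adjusted 0.4).

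On the linear scale, the signal above nontreated cells that was left with FK506 can be set against that with curdlan alone. For Il12b 15.3% was left at 2 h (13.5% to 16.7% over the 3 FK506 arrays) and 29.4% at 4 h (29.0% to 29.97%). For Il23a 45.7% was left at 2 h (43.2% to 50.4%) and 29.0% at 4 h (27.8% to 29.97%). The ranges did not overlap at 2 h and overlapped at 4 h. Array signals near background understate a fold change, so these shares hold for the signal and not for transcript numbers.

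**Figure D3:**
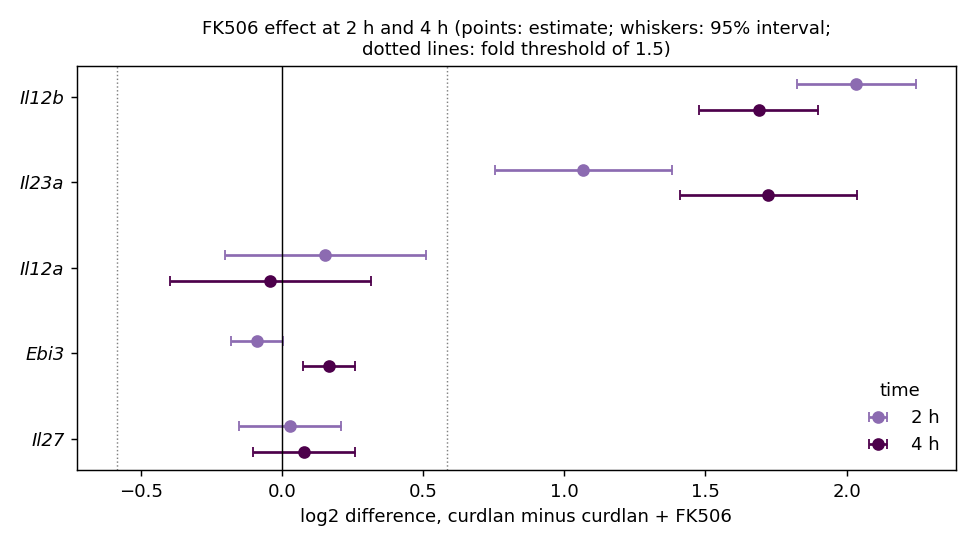
Log2 difference of curdlan minus curdlan with FK506 (horizontal axis) for each member at 2 h and 4 h, with whiskers for the 95% interval and dotted lines at the fold threshold of 1.5. Il12b and Il23a lie to the right of the threshold at both times, from 1.07 to 2.03, and the other members lie within it.

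The change of the FK506 difference from 2 h to 4 h was tested as an interaction, for which 1.23% of all genes were called and 0 of the 5 members were, while 3 members had an unadjusted p under 0.05, as did 17.5% of all genes. The SE used here is drawn from a spread pooled over all 5 groups. For Il23a the SD was 0.42 in nontreated arrays, which this comparison does not use, and from 0.02 to 0.11 in the treated groups. The Il23a difference grew by 0.65 ± 0.21 (SE, limma adjusted p = 0.105). This value passed under 4 other settings, which were centring the arrays on their medians (0.76, limma adjusted p = 0.0481), array weights (0.66, limma adjusted p = 0.00941), fitting these groups alone (0.65, limma adjusted p = 0.000475) and leaving out the 2 outlying arrays (0.63, limma adjusted p = 0.0488). The Il12b value was -0.35 ± 0.14 (SE, limma adjusted p = 0.212).

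Among 7 macrophage markers measured, some values moved with FK506 as well, and not all in the same direction. The mean level of the list ranged from 9.18 to 9.36 in nontreated arrays, 9.38 to 9.43 at 2 h of curdlan and 9.28 to 9.34 at 4 h, and from 9.09 to 9.15 and 8.91 to 8.97 with FK506 at 2 h and 4 h. Of these markers, Mertk, a receptor for apoptotic cells, was called lower with FK506 at 2 h (1.53) and 4 h (2.20), and Cd14, a lipopolysaccharide coreceptor, at 4 h (0.90). Of all genes, 0.762% were called lower with FK506 at 2 h and 1.53% at 4 h. The other macrophage markers were not called with FK506. Their FK506 differences at 4 h were 0.06 for Adgre1, 0.06 for Fcgr1, -0.14 for Cd68, -0.14 for Mrc1 and -0.33 for Csf1r. Nkg7, 1 of 5 NK cell markers, was also called lower with FK506 (0.61 at 2 h and 1.12 at 4 h) from a level below the median gene in every group. The part of these shifts in the member values was not tested.

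Il12a encodes p35, the partner of p40 in IL-12, and was not called in any comparison. Its level read 6.15, 5.71 and 5.61 in nontreated arrays, 5.43, 5.40 and 6.04 at 2 h and 5.54, 5.35 and 5.28 at 4 h of curdlan. With FK506 it read 5.36, 5.60 and 5.44 at 2 h and 5.51, 5.33 and 5.47 at 4 h. Nontreated arrays were the highest, and curdlan 2 h replicate 3, 1 of the 2 outlying arrays, lay among them. The curdlan difference was -0.21 ± 0.16 at 2 h (SE, limma adjusted p = 0.514) and -0.43 ± 0.16 at 4 h (SE, limma adjusted p = 0.0545), with 95% intervals from -0.56 to 0.15 and from -0.79 to -0.08. Without nontreated replicate 1 these values were -0.042 and -0.27, and without curdlan 2 h replicate 3 the value at 2 h was -0.41 (limma adjusted p = 0.0437, under the fold threshold). Leaving out curdlan 2 h replicate 1 or replicate 2 gave -0.11 and -0.093 at 2 h, leaving out nontreated replicate 3 gave -0.31 at 2 h and -0.54 at 4 h (limma adjusted p = 0.0292 at 4 h), and Il12a was called in none of these fits. A rise at 4 h like that of Il12b lies far outside the interval. FK506 differences were 0.15 ± 0.16 at 2 h (SE, limma adjusted p = 0.605) and -0.04 ± 0.16 at 4 h (SE, limma adjusted p = 0.941). The values carry no detection call, so low signal and no expression cannot be told apart for Il12a.

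Ebi3, the receptor-like subunit of IL-27, was present before curdlan and rose late. Its level read 10.51, 10.59 and 10.59 in nontreated arrays, 10.86, 10.96 and 10.83 at 2 h of curdlan and 11.68, 11.67 and 11.70 at 4 h. With FK506 it read 10.97, 10.94 and 11.01 at 2 h and 11.55, 11.50 and 11.50 at 4 h. The arrays with and without FK506 overlapped at 2 h and were narrowly separate at 4 h.

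The Ebi3 difference against nontreated cells was 0.32 ± 0.04 at 2 h (SE, limma adjusted p = 8.59e-05), under the fold threshold, and the rise at 4 h was 1.12 ± 0.04 (SE, limma adjusted p = 1.42e-10), a 2.18-fold rise. From 2 h to 4 h of curdlan it rose by 0.80 ± 0.04 (SE, limma adjusted p = 1.7e-08). With FK506 it was 0.41 ± 0.04 from nontreated cells at 2 h (SE, limma adjusted p = 1.39e-05), under the fold threshold, and rose by 0.96 ± 0.04 at 4 h (SE, limma adjusted p = 1.42e-09). The FK506 difference was -0.09 ± 0.04 at 2 h (SE, limma adjusted p = 0.275) and 0.17 ± 0.04 at 4 h (SE, limma adjusted p = 0.0217), neither reaching the fold threshold. The Ebi3 signal above nontreated cells with FK506 was 132.1% of that with curdlan alone at 2 h (119.0% to 146.3% over arrays), where the differences are small, and 79.9% at 4 h (78.0% to 83.5%). In the order of levels, nontreated lay below curdlan 2 h, FK506 2 h, FK506 4 h and curdlan 4 h, and none of the steps between neighbours reached the fold threshold.

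Il27 encodes p28, the helical partner of EBI3, and its level stayed between 6.65 and 6.98 in all 15 arrays. It read 6.93, 6.66 and 6.82 in nontreated arrays, 6.76, 6.65 and 6.98 at 2 h of curdlan and 6.88, 6.81 and 6.92 at 4 h, and with FK506 6.74, 6.79 and 6.78 at 2 h and 6.75, 6.74 and 6.89 at 4 h. The nontreated arrays overlapped those of every treated group, and so did the curdlan arrays those with FK506 at the same time. The curdlan difference was -0.01 at 2 h (95% interval -0.19 to 0.17) and 0.06 at 4 h (-0.12 to 0.25), and the FK506 difference was 0.03 at 2 h (-0.15 to 0.21) and 0.08 at 4 h (-0.10 to 0.26). These intervals leave out any change in signal of 1.5-fold in either direction. The values carry no detection call here either, so a flat signal and no expression cannot be told apart for Il27.

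By cytokine, the mRNA signal of both subunits rose for IL-23 alone. For IL-12, p40 rose and p35 was not called in any comparison, and for IL-27, Ebi3 rose at 4 h while p28 was not called at either time. The median change over the 5 members was 0.32 at 2 h and 1.12 at 4 h, beside -0.04 and -0.12 over all genes tested, and with so few members each median is the value of a single gene, Ebi3.

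The receptors and signalling molecules for these cytokines were mostly not called. Of the 10 genes described, 0 were called at 2 h of curdlan by limma, with 6 at an unadjusted p under 0.05. Over all genes 28.1% had such a p. At 4 h, 1 rose and 1 fell, where 5.05% of all genes were called higher and 4.15% lower. The list median was -0.04 at 2 h and 0.04 at 4 h, beside -0.04 and -0.12 over all genes. Il12rb2, the chain that gives the IL-12 receptor its STAT4 signal, rose by 1.30 ± 0.08 (SE, limma adjusted p = 1.92e-08), and Il12rb1, the chain shared by the IL-12 and IL-23 receptors, fell by 0.71 on the log2 scale (SE 0.07, limma adjusted p = 1.22e-06). Il12rb2 was also the 1 gene of the list called lower with FK506 at 4 h, by 0.65 ± 0.08 (SE, limma adjusted p = 0.000103), and at 2 h the list had 0 limma calls with FK506 and 1 gene at an unadjusted p under 0.05. For FK506 19.6% of all genes had such a p at 2 h, and 1.53% were called lower at 4 h. Il23r, the IL-23-specific chain, gave -0.28 ± 0.09 at 4 h of curdlan (SE, limma adjusted p = 0.0237) without reaching the fold threshold.

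Transcription factors known to act on the subunit genes were next. Of 19 listed factors 18 were measured (Nfkb1 was not). At 2 h 9 rose and 0 fell, with a list median of 0.65, and at 4 h 12 rose and 1 fell, with a median of 1.05 (-0.04 and -0.12 over all genes). Among all genes 2.2% were called higher at 2 h and 5.05% at 4 h, and 1.4% and 4.15% lower. The largest rises at 2 h were those of Atf3, a stress-induced repressor of inflammatory genes (4.39), Nfkbiz, a nuclear NF-kB cofactor (3.02), Irf8, which acts on the Il12b promoter (1.59), and Rel, the c-Rel subunit of NF-kB (1.13). At 4 h they were those of Atf3 (4.16), Irf8 (2.40), Nfkbiz (2.32) and Nfkb2 (1.57), and Nfatc2 fell by 0.70 on the log2 scale. With FK506 against nontreated cells, 8 rose at 2 h and 9 at 4 h, beside 1.81% and 2.95% of all genes.

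The FK506 difference of these factors was 0 calls of 18 at 2 h by limma (8 at an unadjusted p under 0.05, beside 19.6% of all genes). At 4 h 3 factors were called, all lower with FK506 (1.53% of all genes). They were Irf7, a driver of type I interferon genes (1.38 ± 0.08), Nfil3, a bZIP factor (0.74 ± 0.09), and Irf1, which is induced by interferons (0.72 ± 0.05; SE). Atf3 and Nfkbiz differed by 0.13 and 0.22 at 2 h and by 0.01 and 0.08 at 4 h, and neither was called. Nfatc2 itself was higher with FK506 at 2 h (-0.45 ± 0.04) and at 4 h (-0.43 ± 0.04; SE). Both values lay under the fold threshold, so it was not called.

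**Figure D4:**
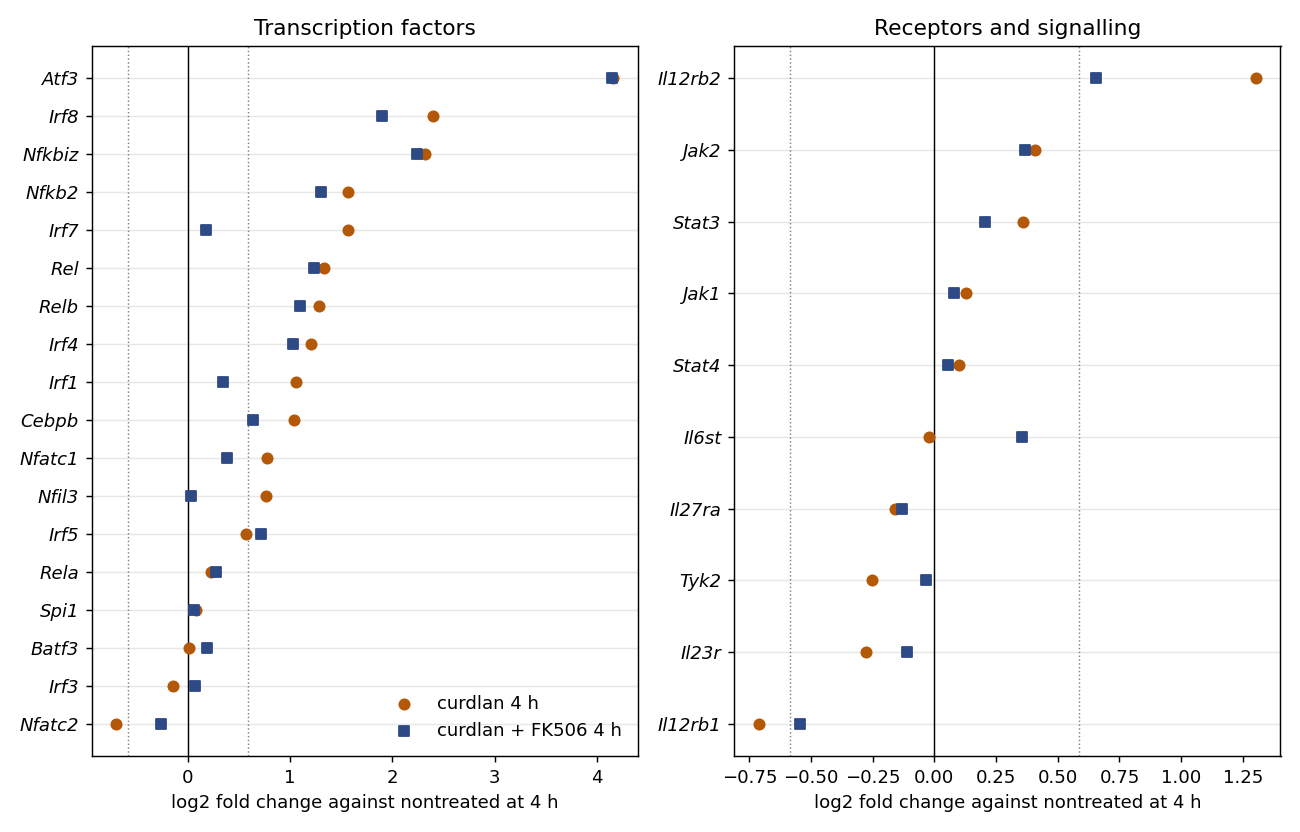
Log2 fold change against nontreated cells at 4 h (horizontal axis) of the 18 measured transcription factors and the 10 measured receptor and signalling genes, with circles for curdlan and squares for curdlan with FK506. Atf3 lies at 4.16 and 4.15, Irf7 at 1.56 and 0.18, and Il12rb2 at 1.30 and 0.66.

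Of 10 genes from dectin-1 to calcineurin, 3 rose at 2 h of curdlan, namely Rcan1, a calcineurin inhibitor (1.38), and Malt1 and Bcl10, which relay the CARD9 signal (0.94 and 0.61). At 4 h Malt1 and Bcl10 rose (0.95 and 0.64) and Card9 fell by 0.77 on the log2 scale. Rcan1 stood at 0.576 at 4 h (limma adjusted p = 6.36e-06), just under the fold threshold, and was not called. The list median was -0.03 at 2 h and 0.09 at 4 h. Over all genes 2.2% were called higher at 2 h and 5.05% at 4 h, and 4.15% lower at 4 h. For the FK506 difference, 0.762% of all genes were called lower with FK506 at 2 h and 1.53% at 4 h. Rcan1 was the 1 gene of the list called with FK506, lower by 1.57 ± 0.06 at 2 h and by 0.69 ± 0.06 at 4 h (SE, limma adjusted p = 3.47e-09 and 6.67e-06). At 2 h with FK506 its level was 7.82 ± 0.04, against 8.01 ± 0.11 in nontreated cells (SD, n = 3), whereas Il12b and Il23a with FK506 were above nontreated cells.

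The helical subunits are related to the IL-6 cytokines, and EBI3 and p40 to their soluble receptors, of which 7 of 8 listed genes were measured. At 2 h of curdlan 2 rose, Lif (2.47) and Clcf1 (2.44), both ligands that signal through gp130. At 4 h 3 rose, Clcf1 (2.72), Lif (2.43) and Il6 (0.94), and the IL-6 receptor gene Il6ra fell by 0.69 on the log2 scale, with list medians of 0.01 at 2 h and -0.07 at 4 h. Curdlan calls over all genes were 2.2% higher at 2 h, and 5.05% higher and 4.15% lower at 4 h. With FK506, Lif was called lower at 2 h (0.67), and Lif, Clcf1 and Il6 at 4 h (1.26, 0.91 and 0.87), while Il6ra was called higher at 4 h (-0.72). Of all genes, 0.762% were called lower with FK506 at 2 h and 1.53% at 4 h. The share called higher with FK506 is not given here.

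The pattern over the 15 arrays was compared between genes by Pearson's r, as a description over arrays that share the same groups. Among the 807 genes whose group means spanned at least 1 log2 unit, those most like Il12b were Tnfsf15 (r = 0.992), Sh3bp5 (0.988), Acod1 (0.981), Tnfrsf1b (0.980) and Nudt9 (0.978). Those most like Il23a were Il2 (0.996), Hspa1l (0.989), Grasp (0.988), Ccl1 (0.986) and Hivep3 (0.985), and those most like Ebi3 were Tmem198b (0.990), Stat5b (0.990), Bcl2l11 (0.989), Zhx2 (0.989) and Siglecg (0.989). Between members, r was 0.879 for Il12b with Il23a, 0.886 for Il12b with Ebi3 and 0.757 for Il23a with Ebi3. Tnfsf15, a TNF superfamily ligand, was lower with FK506 by 1.29 at 2 h and 1.20 at 4 h, beside 2.03 and 1.69 for Il12b. Il2, encoding the T cell growth factor IL-2, was lower by 1.61 and 1.83, beside 1.07 and 1.72 for Il23a.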

How the data were processed

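Total RNA of 15 samples was hybridised to 1-colour arrays. The authors deposited log2 values per probe set, which the submitters' processing notes credit to RMA in the affy package and R 2.15.2; RMA corrects background, makes array distributions equal and summarises probes. Quantile normalization hides a shift of all genes at once, and array medians lay between 6.45 and 6.57. Of 34760 probe sets, the 21640 with 1 gene symbol were used, the brightest per gene over all arrays, which gave 19937 genes. All arrays and all genes, dim ones included, were kept.

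Group means were estimated in limma 3.58.1 (R 4.3.3) from the 15 arrays at once, leaving 10 residual degrees of freedom. The SE of a gene thus rests on a spread shared by all groups, and not on that of the groups compared alone. Moderated two-sided tests were run, with the Benjamini-Hochberg adjustment made per comparison across the 19937 genes. The 3 arrays per group limit the precision, with a median SE of 0.0768. The test was checked on simulated data. All 5 members are named, with up to 4 called genes of each pathway list per comparison and the 5 genes of most similar pattern. Members and lists were chosen with earlier results of these data known. Promoter windows came from RefSeq on GRCm38.p6. Alternatives were other scalings, array weights, fold thresholds, a filter on dim genes, a replicate block, groups fitted alone and leaving out arrays.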

Additional observations from a re-analysis of the deposited data

Results flagged for a closer look

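For 16 of the 48 genes named, the FK506 difference at 4 h departed from that at 2 h by the interaction test (limma adjusted p under 0.05), and 6 of these also reached the fold threshold. Over all genes 1.23% were called with that threshold, and the count without it is given below. Many of the genes were named for large changes in these data, so the count is not a result about the family. Ebi3 changed by 0.26 (from -0.09 to 0.17, limma adjusted p = 0.0303), which is under the fold threshold and kept the p threshold in the 12 fits without a single array only where replicate 2 of curdlan 2 h, replicate 2 of FK506 2 h or replicate 1 of FK506 4 h was left out (limma adjusted p 0.0173 to 0.0899 over the 12), and lost it with centred arrays (0.123) and with a replicate block (0.0657). Il12rb2 changed by 0.75 (from -0.10 to 0.65, limma adjusted p = 0.00185). Irf7 changed by 1.35 (from 0.04 to 1.38, limma adjusted p = 2.05e-05). Il6 changed by 0.85 (from 0.02 to 0.87, limma adjusted p = 0.000975). Lif changed by 0.59 (from 0.67 to 1.26, limma adjusted p = 0.00772). Rcan1 went the other way, by -0.88 (from 1.57 to 0.69, limma adjusted p = 8.07e-05). Mertk changed by 0.68 (from 1.53 to 2.20, limma adjusted p = 0.00888). Under the fold threshold, the change was 0.58 for Grasp, 0.48 for Tmem198b, 0.48 for Clcf1, 0.47 for Irf8, 0.34 for Irf1, 0.33 for Tnfrsf1b, 0.32 for Stat5b, -0.39 for Card9 and -0.40 for Il6ra (limma adjusted p from 0.000432 for Irf8 to 0.0286 for Stat5b).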

How the results depend on the processing

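No value of Il12b, Il23a or Ebi3 changed sign under any alternative. The values near 0 of the other members did. The Il27 curdlan difference at 2 h became 0.042 with quantile normalization repeated, 0.033 with centred arrays and 0.073 with array weights, and lay between -0.10 and 0.067 over fits without single arrays. Its FK506 difference at 2 h became -0.030, -0.042 and -0.013 under the same settings and -0.065 without both outlying arrays (-0.065 to 0.10 without single arrays), and its curdlan difference at 4 h lay between -0.0067 and 0.13. The Il12a FK506 difference at 4 h became 0.0067 with quantile normalization repeated (-0.12 to 0.013 without single arrays), and at 2 h -0.025 with weights and -0.056 without both arrays (-0.056 to 0.27). The change of the Il23a FK506 difference with time passed when centred (0.76), weighted (0.66), fitted alone (0.65) and without both arrays (0.63), and lay between 0.59 and 0.69 without single arrays.

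Without a fold threshold, calls numbered 4004 and 7432 for curdlan at 2 h and 4 h, 1509 and 2327 for FK506, 3515 and 5175 for curdlan with FK506, 5191 and 2788 from 2 h to 4 h without and with FK506, and 872 for the interaction. Ebi3 then also passed for curdlan at 2 h (0.32), FK506 at 4 h (0.17), curdlan with FK506 at 2 h (0.41), 2 h to 4 h with FK506 (0.55) and the interaction (0.26), and Il12b for curdlan 2 h against FK506 4 h (-0.50). At a fold of 2 the counts were 246, 640, 68, 117, 173, 318, 233, 62 and 65 in the same order. Ebi3 no longer passed for curdlan with FK506 at 4 h (0.96), curdlan 4 h against 2 h (0.80), curdlan 2 h against FK506 4 h (-0.63) and curdlan 4 h against FK506 2 h (0.71), nor did Il23a for curdlan 4 h against 2 h (0.99) and curdlan 2 h against FK506 4 h (0.74). These follow from the threshold, and the cause of the other changes was not tested. Deviations of samples with the same replicate number correlated from -0.73 to 0.58 (30 pairs, median 0.02, 9 over 0.1), with no common direction. Nontreated with curdlan 2 h arrays gave -0.62, 0.58 and -0.73 for replicates 1, 2 and 3. A replicate block, which gave 717 and 1834 calls for curdlan at 2 h and 4 h, changed no member call.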
